A study of Mus musculus with 6 samples.

Results

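The genes described here are 9 enzymes that make, interconvert and remove adenine nucleotides in muscle: the AMP deaminases Ampd1, Ampd2 and Ampd3, the enzymes that return IMP to AMP (Adssl1 and Adsl), the kinases Ak1, Ak6 and Ckm, and the cytosolic nucleotidase Nt5c1a. They were chosen by name, as the rows of the deposited count tables that carry these symbols, and all 9 were found among the 24421 genes listed. Bulk RNA-Seq had been done on GP (gastrocnemius and plantaris) muscle of male mice whose strain background is labelled B6C3F1 (by the study's methods, founders of the floxed line were bred to C57BL/6N), at 5 months of age and 3 months after tamoxifen. By their labels, the Ctrl libraries (n = 3) are from mice homozygous for the floxed Net39 allele without Cre and the cKO libraries (n = 3) from HSACreERT2;Net39 fl/fl mice, and the level of Net39, given below, goes against these labels. As labelled, floxed alleles and tamoxifen are common to both groups. The HSA promoter, from human skeletal actin, drives the inducible Cre in muscle fibers and not in satellite cells, the resident stem cells of muscle, so cells of the tissue other than fibers are not its target.

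Contracting muscle spends ATP faster than it can be remade, and the cell holds its ATP-to-ADP ratio through phosphotransfer. Creatine kinase passes phosphate from phosphocreatine to ADP, and adenylate kinase turns a pair of ADP molecules into ATP and AMP. AMP deaminase removes the AMP by converting it to IMP, which pulls the adenylate kinase reaction forward, and adenylosuccinate synthase and adenylosuccinate lyase later rebuild AMP from IMP. These 3 enzyme steps form the purine nucleotide cycle. AMP that is dephosphorylated to adenosine by a 5'-nucleotidase leaves the nucleotide pool, and AMP is also the activating ligand of the energy-sensing kinase AMPK.

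Total counts were 33860001 to 38201728 in the Ctrl-labelled libraries and 39191239 to 48839910 in the cKO-labelled ones. The targeted gene, Net39 (listed as Ppapdc3), went against the labels. It was measured at 7.92, 7.75 and 5.93 CPM (read counts normalised to library size, with TMM scaling) in the Ctrl-labelled libraries and at 151, 113 and 138 CPM in the cKO-labelled ones, a log2 difference of 4.22 (SE 0.17, adjusted p = 0.000161). The groups are therefore named throughout by their labels, and every log2 fold change is the cKO-labelled libraries over the Ctrl-labelled ones; whether the labels were exchanged was not tested. Skeletal muscle markers summed to 63300 to 64300 CPM in the Ctrl-labelled libraries and 66100 to 85500 CPM in the cKO-labelled ones. In whole muscle, fewer cells of a type and less RNA per cell cannot be told apart.

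All 9 genes passed the filter on low counts, and 7 of them differed between the labelled groups at an adjusted p under 0.05 (edgeR's quasi-likelihood test, adjusted over the 14180 genes tested). Of these, 6 were higher in the cKO-labelled libraries (Ampd1, Adssl1, Ak1, Ak6, Ckm and Nt5c1a), against 12.6% of all genes tested in that direction. Because the 9 genes were chosen with earlier results of these data known, the shares set beside them are a description only. Ampd3 alone was higher in the Ctrl-labelled libraries, a direction taken by 11.8% of all genes. Ampd2 and Adsl did not pass the test. With a fold change over 2 as well, Ampd1, Ak6 and Nt5c1a were higher in the cKO-labelled libraries (3 of 9, against 2.13% of all genes) and Ampd3 in the Ctrl-labelled ones (1 of 9, against 3.92%). The 3 became 2 without Ctrl 1, Ctrl 2 or cKO 1 (Ampd1 lost), and only Nt5c1a remained without cKO 3 or with libraries scaled by total counts, where Ak6 fell under the fold limit (log2 fold change 0.94 and 0.76). At the adjusted p alone, the 6 became 3 without Ctrl 1, Ctrl 2, cKO 1 or cKO 3. The median log2 fold change was 0.675 over the 9 genes and -0.015 over all genes tested. For each of the 9 genes the 3 libraries of a group lay wholly on 1 side of the other 3, in 7 genes with the cKO-labelled libraries above (22% of all genes) and in 2 with the Ctrl-labelled libraries above (21.9%); 43.9% of all genes were separated in either direction. An exact permutation test on a single gene cannot go below p = 0.1 with 3 against 3, and gave p = 0.1 for each of the 9.

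**Figure D1:**
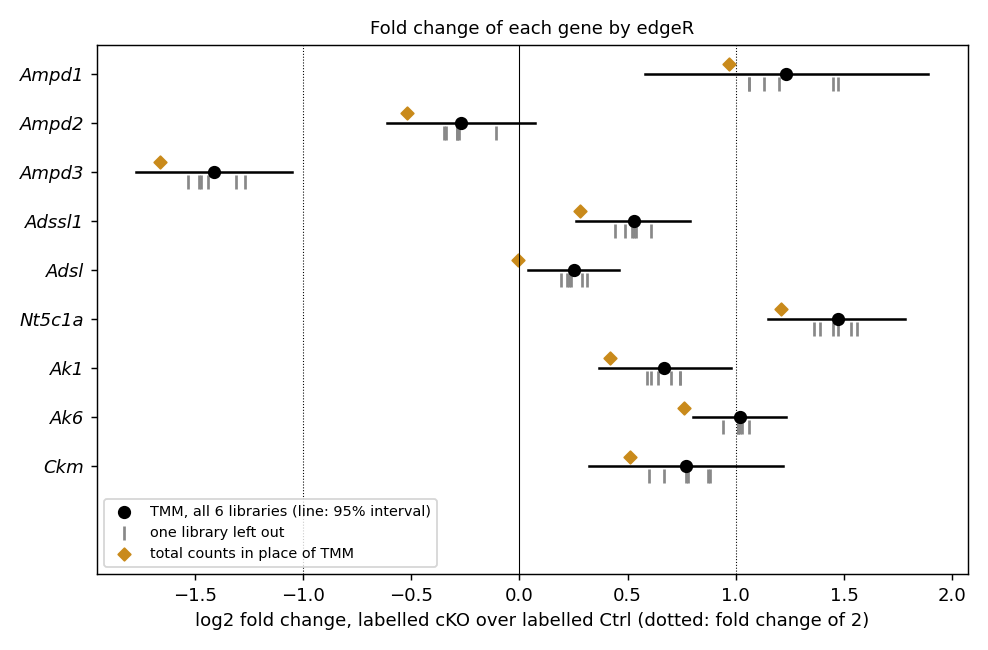
Log2 fold change of the 9 genes (horizontal axis, cKO-labelled libraries over the Ctrl-labelled ones) with its 95% confidence interval (black, TMM scaling), the values with each library left out (grey ticks) and the value scaled by total counts (diamonds). Nt5c1a at 1.47 and Ampd3 at -1.41 lie at the ends, and the intervals of Ampd2 and Adsl lie nearest to 0, with only that of Ampd2 spanning it.

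Compared per kilobase of exon, on which genes can be set beside each other, Ckm was the most abundant of the 9 by a wide margin, at 2880 ± 413 CPM per kb (SD, n = 3) in the Ctrl-labelled libraries. It was followed by Ak1 (433 ± 47.3), Adssl1 (376 ± 44.7) and Ampd1 (211 ± 58.6), of which Ak1 and Adssl1 overlapped in range. Adsl (23.8 ± 0.986), Ampd3 (10.7 ± 1.74), Nt5c1a (5.16 ± 0.598), Ak6 (4.09 ± 0.0394) and Ampd2 (1.66 ± 0.309) were the lower 5, and no neighbours among them overlapped. In the cKO-labelled libraries the upper 5 stood in the same order, although Adssl1 (543 ± 13.1) and Ampd1 (496 ± 148) now overlapped. The order of the lower genes was different there, with Nt5c1a at 14.2 ± 1.77 and Ak6 at 8.28 ± 0.704 CPM per kb above Ampd3 at 4.03 ± 0.611. These levels depend on the exons counted as the gene's length: with the main transcript alone, Ak6 stood above Nt5c1a in both groups, at 8.74 against 5.16 and at 17.7 against 14.2 CPM per kb, and Ampd1 stood above Adssl1 in the cKO-labelled libraries, at 751 against 638.

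**Figure D2:**
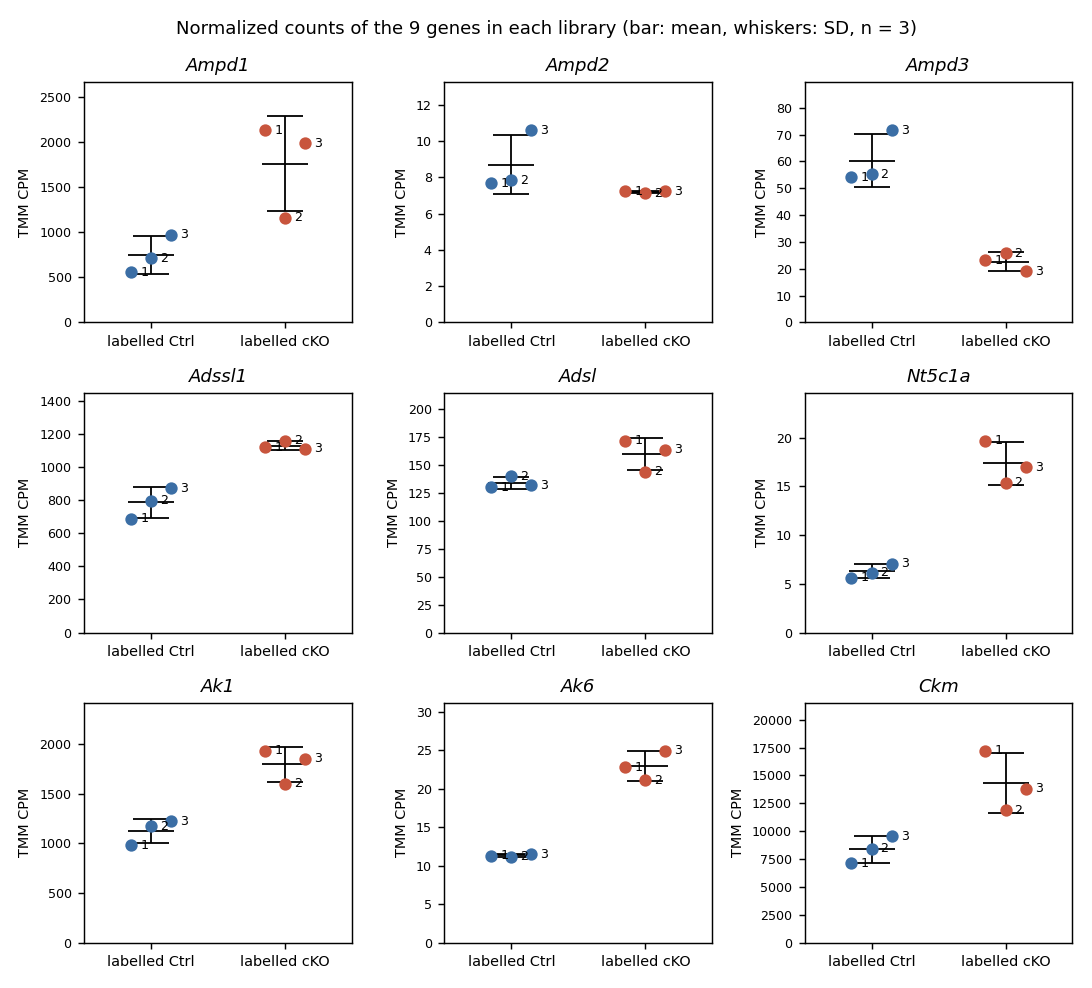
TMM-scaled CPM of each of the 9 genes in the 6 libraries (vertical axes, 1 panel per gene with its own scale), with the group mean and SD. In every panel the 3 libraries of a group lie on 1 side of the other 3, by a wide gap in Nt5c1a (at most 7.08 against at least 15.4 CPM) and a narrow gap in Ampd2 (at most 7.25 against at least 7.69).

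Of the AMP deaminases, Ampd1 was higher in the cKO-labelled libraries and Ampd3 in the Ctrl-labelled ones, while Ampd2 did not pass the test. Ampd1 encodes the isoform typical of adult skeletal muscle, which binds myosin, and lies on chromosome 3 (103074014 to 103099720, plus strand, GRCm38, 16 exons). It was measured at 559, 714 and 971 CPM in the Ctrl-labelled libraries and at 2130, 1160 and 1990 CPM in the cKO-labelled ones. The libraries of a group differed by up to 1.74 times and 1.84 times, the lowest cKO-labelled library standing near the highest labelled Ctrl. Ampd1 was 2.35-fold higher in the cKO-labelled libraries (log2 fold change 1.23, SE 0.28, 95% interval 0.58 to 1.89, adjusted p = 0.0208, edgeR). This call was lost when any of 4 libraries was left out (Ctrl 1, Ctrl 2, cKO 1 or cKO 3), with an adjusted p of up to 0.0714.

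Ampd3 encodes the isoform known from red blood cells and, in muscle, from states of atrophy and denervation. It lies on chromosome 7 (110768206 to 110812405, plus strand, 15 exons). Its level was 54.1, 55.2 and 71.6 CPM in the Ctrl-labelled libraries and 23.2, 25.8 and 19 CPM in the cKO-labelled ones. The groups were far apart compared with the spread within them, and Ampd3 was 2.66-fold higher in the Ctrl-labelled libraries (log2 fold change -1.41, SE 0.15, 95% interval -1.77 to -1.05, adjusted p = 0.00261, edgeR). The call held without any single library. Of its exon bases 8.4% lie under other annotated genes, among them Rnf141 on the opposite strand, whose log2 fold change was 0.16 (adjusted p = 0.402).

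Ampd2, the isoform prominent in liver and many non-muscle cells, lies on chromosome 3 (108074062 to 108086651, minus strand, 18 exons). It was low in every library, at 7.69, 7.84 and 10.6 CPM in the Ctrl-labelled libraries and 7.25, 7.12 and 7.23 CPM in the cKO-labelled ones. Although the groups did not overlap, the difference (log2 fold change -0.27, SE 0.14, 95% interval -0.61 to 0.07) did not pass the test (adjusted p = 0.207, edgeR). It passed with libraries scaled by total counts (-0.52, adjusted p = 0.0336). Without Ctrl 3, the library with the highest level, the log2 fold change was -0.11 (adjusted p = 0.487).

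Because the isoforms catalyse 1 reaction, their balance was also measured within each library. The log2 ratio of Ampd3 to Ampd1 CPM was -3.37, -3.69 and -3.76 in the Ctrl-labelled libraries and -6.52, -5.49 and -6.71 in the cKO-labelled ones. The mean difference was -2.63, a 6.2-fold shift toward Ampd1 in the cKO-labelled libraries (two-sided exact permutation p = 0.1). Ampd2 shifted against Ampd1 in the same way, by -1.48 on the log2 scale (exact permutation p = 0.1). Per kilobase, Ampd3 gave 5.7%, 4.61% and 4.41% of the AMP deaminase reads in the Ctrl-labelled libraries and 0.679%, 1.38% and 0.599% in the cKO-labelled ones, and Ampd1 gave the great majority in every library, from 93.4% to 99.2%. The size of the Ampd3 difference depended on the length: it was -4.02 percentage points per kilobase and -6.15 without dividing by length. The sum of the 3 genes was 169, 213 and 288 CPM per kb in the Ctrl-labelled libraries and 607, 333 and 565 CPM per kb in the cKO-labelled ones, and followed Ampd1. The longest run of bases shared by any pair of their transcripts is 34, between Ampd1 and Ampd2.

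**Figure D3:**
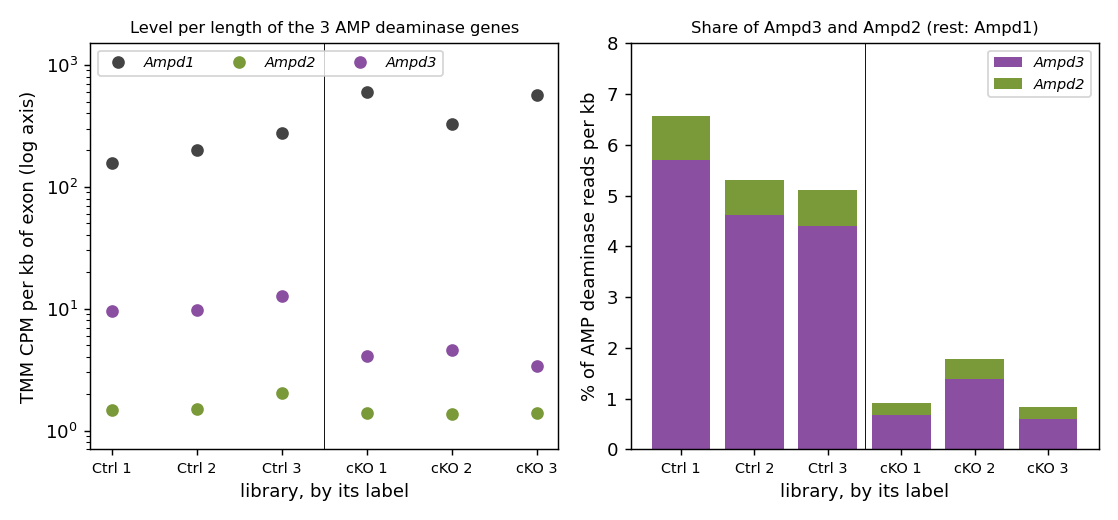
Left, TMM-scaled CPM per kb of exon of Ampd1, Ampd2 and Ampd3 in the 6 libraries (log axis). Right, the percentage of AMP deaminase reads per kb that came from Ampd3 and Ampd2 in each library as stacked bars, with Ampd3 at 4.41% to 5.7% in the Ctrl-labelled libraries and at 0.599% to 1.38% in the cKO-labelled ones.

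Of the enzymes that rebuild AMP from IMP, Adssl1 passed the test and Adsl did not. Adssl1, the muscle isozyme of adenylosuccinate synthase, lies on chromosome 12 (112620045 to 112641360, plus strand, 13 exons). It was measured at 688, 798 and 874 CPM in the Ctrl-labelled libraries and 1120, 1160 and 1110 CPM in the cKO-labelled ones, which lay close together. It was 1.44-fold higher in the latter (log2 fold change 0.53, SE 0.11, adjusted p = 0.0172, edgeR). The same 4 libraries decided this call as that of Ampd1, with an adjusted p of up to 0.0593 without Ctrl 1, Ctrl 2, cKO 1 or cKO 3. Scaled by total counts in place of TMM, Adssl1 did not pass (log2 fold change 0.28, adjusted p = 0.0981).

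Adsl, adenylosuccinate lyase, which also acts in de novo purine synthesis and is needed in all cells, lies on chromosome 15 (80948490 to 80970946, plus strand, 13 exons). Its values were 130, 140 and 132 CPM in the Ctrl-labelled libraries and 172, 144 and 164 CPM in the cKO-labelled ones, where cKO 2 lay just above the highest Ctrl-labelled library. The log2 fold change of 0.25 (SE 0.09, 95% interval 0.04 to 0.46) did not pass the test (adjusted p = 0.079, edgeR), and passed without cKO 2 (log2 fold change 0.31, adjusted p = 0.0387). With total counts its sign turned (-0.0049, adjusted p = 0.963). Relative to Ampd1, Adssl1 was at log2 ratios of 0.30, 0.16 and -0.15 in the Ctrl-labelled libraries and -0.92, 0.01 and -0.84 in the cKO-labelled ones. These ranges overlapped at cKO 2, with means of 0.1 ± 0.23 and -0.58 ± 0.51 (SD, n = 3) and an exact permutation p of 0.2, where 0.1 is the smallest the design allows. The log2 ratio of Adsl to Adssl1 also overlapped, at -2.55 ± 0.17 against -2.83 ± 0.16 (SD; exact permutation p = 0.2).

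Nt5c1a, the AMP-preferring cytosolic 5'-nucleotidase of skeletal muscle and heart, and Ampd3 had the largest log2 fold changes in size of the 9 genes, with all 6 libraries and TMM scaling, and which of them led changed with the scaling and with the library left out. It lies on chromosome 4 (123201504 to 123216275, plus strand, 6 exons) and was low, at 5.64, 6.15 and 7.08 CPM in the Ctrl-labelled libraries and 19.7, 15.4 and 17 CPM in the cKO-labelled ones. Nt5c1a was 2.76-fold higher in the cKO-labelled libraries (log2 fold change 1.47, SE 0.13, 95% interval 1.15 to 1.78, adjusted p = 0.00155, edgeR), and the call held without any single library. No exon bases of Nt5c1a lie under another annotated gene.

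All 3 kinases were higher in the cKO-labelled libraries. Ckm, the cytosolic muscle creatine kinase, lies on chromosome 7 (19404776 to 19422841, plus strand, 8 exons). It was measured at 7160, 8420 and 9570 CPM in the Ctrl-labelled libraries and 17200, 11900 and 13800 CPM in the cKO-labelled ones. Its 1.7-fold difference (log2 fold change 0.77, SE 0.19, adjusted p = 0.0279, edgeR) was lost without Ctrl 1, Ctrl 2, cKO 1 or cKO 3, where the adjusted p reached 0.0918. Ckm alone gave 0.797% to 1.03% of all counts in the Ctrl-labelled libraries and 1.17% to 1.49% in the cKO-labelled ones, and ranked between the seventh and the tenth most counted gene in every library. Of its exon bases 15.5% lie under A930016O22Rik on the opposite strand, which was at no more than 32.6 CPM in any library.

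Ak1, the major cytosolic adenylate kinase of muscle, lies on chromosome 2 (32621758 to 32635058, plus strand, 7 exons). Its level was 984, 1170 and 1220 CPM in the Ctrl-labelled libraries and 1930, 1600 and 1850 CPM in the cKO-labelled ones, with the groups well separated. Ak1 was 1.6-fold higher in the cKO-labelled libraries (log2 fold change 0.67, SE 0.13, 95% interval 0.37 to 0.98, adjusted p = 0.0118, edgeR). The call held without any single library, most narrowly without cKO 3 (adjusted p = 0.04999).

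Ak6, a nuclear adenylate kinase with a role in ribosome assembly, lies on chromosome 13 (100650979 to 100666359, plus strand, 5 exons). It was at 11.3, 11.2 and 11.5 CPM in the Ctrl-labelled libraries and 22.8, 21.1 and 24.9 CPM in the cKO-labelled ones. The groups were far apart compared with their spread, and Ak6 was 2.02-fold higher in the cKO-labelled libraries (log2 fold change 1.02, SE 0.09, 95% interval 0.8 to 1.23, adjusted p = 0.00147, edgeR). The value is uncertain, because 59.1% of Ak6 exon bases lie under other genes: 1564 bases are shared with Taf9 on the same strand, and how reads in such bases were assigned is not given in the sources used here. Taf9 itself, a subunit of the general transcription factor TFIID, was at 18.9, 20.1 and 21.7 CPM in the Ctrl-labelled libraries and 18.9, 19.9 and 17.6 CPM in the cKO-labelled ones (log2 fold change -0.11, SE 0.09, adjusted p = 0.417). Against Ak1, Ak6 was higher by 0.34 on the log2 scale in the cKO-labelled libraries (exact permutation p = 0.1).

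Promoter sequence was read from RefSeq (GRCm38.p6), from 250 bases before to 50 bases after each annotated start. A window was found for 8 of the 9 genes, 14 windows in all; Ampd1 was not matched. The windows of 4 genes are shown because they belong to genes on either side of the comparison: Ampd3, higher in the Ctrl-labelled libraries, and Nt5c1a, Ckm and Ak1, higher in the cKO-labelled ones. Of several starts, the first is shown for Ampd3, and for Ak1 the second was chosen after the search, as the only window with a MEF2 or TATAAA match. Capitals mark the E-box CANNTG, the letters bound by myogenic bHLH factors, and in Ak1 also an overlapping match to the MEF2 motif and to TATAAA. Both strands were searched. All 4 genes are on the plus strand.
Ampd3, first of 3 starts, chr7:110768372-110768671: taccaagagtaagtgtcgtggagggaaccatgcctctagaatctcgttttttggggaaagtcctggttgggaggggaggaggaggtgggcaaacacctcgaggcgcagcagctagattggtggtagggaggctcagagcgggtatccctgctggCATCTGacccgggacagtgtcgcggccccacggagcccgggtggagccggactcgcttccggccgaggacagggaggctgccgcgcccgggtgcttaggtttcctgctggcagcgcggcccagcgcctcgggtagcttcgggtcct
Nt5c1a, chr4:123201235-123201534: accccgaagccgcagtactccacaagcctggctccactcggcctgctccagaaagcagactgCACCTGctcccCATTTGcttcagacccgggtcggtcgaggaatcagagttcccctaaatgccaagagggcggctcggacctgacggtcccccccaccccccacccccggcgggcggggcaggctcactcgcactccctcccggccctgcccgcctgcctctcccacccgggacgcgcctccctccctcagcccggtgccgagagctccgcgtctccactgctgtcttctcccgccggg
Ckm, chr7:19410844-19411143: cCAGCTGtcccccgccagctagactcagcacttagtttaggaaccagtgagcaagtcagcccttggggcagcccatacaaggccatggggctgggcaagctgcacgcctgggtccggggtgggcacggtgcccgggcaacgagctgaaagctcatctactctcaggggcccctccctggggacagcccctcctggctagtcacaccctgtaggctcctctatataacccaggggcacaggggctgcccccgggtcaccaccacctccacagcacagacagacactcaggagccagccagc
Ak1, the second of 4 starts, chr2:32625187-32625486: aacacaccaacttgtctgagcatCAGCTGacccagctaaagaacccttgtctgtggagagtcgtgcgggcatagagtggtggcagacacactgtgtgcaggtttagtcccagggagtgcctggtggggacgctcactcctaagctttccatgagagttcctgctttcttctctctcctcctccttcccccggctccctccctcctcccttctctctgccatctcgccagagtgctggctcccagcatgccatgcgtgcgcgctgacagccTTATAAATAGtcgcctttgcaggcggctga
An E-box was found in 12 of the 14 windows, and 72.3% of the 32851 RefSeq promoters of this length hold it. The form CAGCTG was in 3 of the 14 windows (16.3% of all promoters), among them those shown for Ckm and Ak1. The MEF2 motif was in 1 window, that of Ak1 shown (3.2% of all promoters), and its TATAAA was also the only one (13.6% of all promoters). These are matches of letters, and no binding was measured.

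The wider pathway was described with 9 lists of 73 other genes of purine and creatine metabolism and of AMPK, of which 64 passed the filter. Of the 64, 10 were higher in the cKO-labelled libraries (15.6%, against 12.6% of all genes), 9 in the Ctrl-labelled ones (14.1%, against 11.8%), and 45 did not pass the test. Their median log2 fold change was -0.03, beside -0.015 over all genes.

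The other adenylate kinases and nucleotidases held genes of both directions. Ak4, a mitochondrial matrix adenylate kinase, was at 10, 12 and 11.5 CPM in the Ctrl-labelled libraries and 5.02, 6.47 and 3.61 CPM in the cKO-labelled ones (log2 fold change -1.15, SE 0.21, adjusted p = 0.01). Ak3 was the only other of the 4 adenylate kinases tested to pass, in the opposite direction (0.45, adjusted p = 0.0192). Nt5c2, a cytosolic nucleotidase that prefers IMP and GMP, was at 27.5, 21.3 and 20.3 CPM against 8.97, 10.5 and 8.52 CPM (log2 fold change -1.3, SE 0.15, adjusted p = 0.00281), opposite to Nt5c1a. Of the 9 other nucleotidases tested 2 were higher in the cKO-labelled libraries and 2 in the Ctrl-labelled ones.

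Opposite to Ckm, 2 of the 5 other creatine genes tested were higher in the Ctrl-labelled libraries, and none was higher in the cKO-labelled ones: Gamt, which makes creatine (log2 fold change -0.91, adjusted p = 0.0111), and Slc6a8, the creatine transporter (-0.36, adjusted p = 0.0268). Ckmt2, the mitochondrial creatine kinase of muscle, did not pass (-0.34, adjusted p = 0.234). In purine salvage and breakdown 2 of 8 genes were higher in the Ctrl-labelled libraries, of which Hprt, which recovers IMP and GMP from bases, had the smallest p (-0.31, adjusted p = 0.0371).

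In de novo purine synthesis 3 of 14 genes were higher in the cKO-labelled libraries, led by Prps1l3 (0.58, adjusted p = 0.00454). Prps1l3 is a close copy of Prps1, also among the 3 (0.4, adjusted p = 0.00781), with which it may share reads. Gmpr, which returns GMP to IMP, was the 1 of 3 GMP branch genes to pass, at 96, 91.9 and 108 CPM in the Ctrl-labelled libraries and 153, 165 and 153 CPM in the cKO-labelled ones (0.67, SE 0.09, adjusted p = 0.00395). None of 8 nucleoside transporters and ectoenzymes passed, Slc29a1 coming nearest (-0.28, adjusted p = 0.0501). Of 6 nucleoside diphosphate kinases only Nme4, the mitochondrial form, passed (-1.14, SE 0.22, adjusted p = 0.0122).

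Subunits of AMPK, the kinase activated by AMP, gave 3 of 7 genes higher in the cKO-labelled libraries and 1 higher in the Ctrl-labelled ones. Prkab2, a regulatory beta subunit prominent in muscle, was at 154, 207 and 284 CPM against 607, 429 and 487 CPM (log2 fold change 1.24, SE 0.23, adjusted p = 0.0117). Prkag3, the gamma subunit of fast muscle, was at 79.6, 126 and 153 CPM against 259, 264 and 205 CPM (1.02, SE 0.23, adjusted p = 0.0208). The catalytic subunits diverged, with Prkaa2 higher in the cKO-labelled libraries (0.73, adjusted p = 0.00394) and Prkaa1 in the Ctrl-labelled ones (-0.54, adjusted p = 0.00691).

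**Figure D4:**
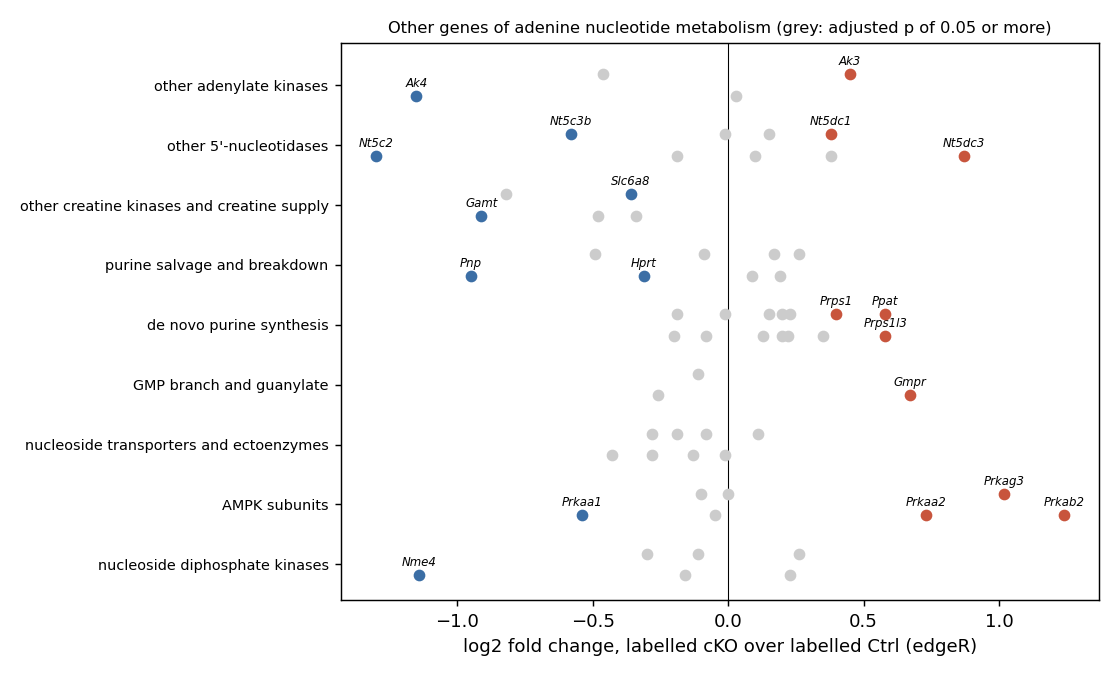
Log2 fold change of the genes tested in the 9 pathway lists (horizontal axis, cKO-labelled libraries over the Ctrl-labelled ones), 1 row per list; colored and named points passed an adjusted p of 0.05, and grey points did not. Passed genes stand on both sides of 0, from Nt5c2 at -1.3 to Prkab2 at 1.24.

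Markers of fiber types, and some markers of other cells, also differed between the labelled groups. Slow-fiber markers summed to 9490 to 16000 CPM in the Ctrl-labelled libraries and 611 to 4220 CPM in the cKO-labelled ones, and 6 of the 12 tested were higher in the former. Fast-fiber markers summed to 70000 to 113000 CPM and 171000 to 217000 CPM, and 11 of 12 were higher in the cKO-labelled libraries. Of the defining markers, fast myosin Myh4 was at 15300, 24600 and 36600 CPM against 80100, 57400 and 72900 CPM (log2 fold change 1.46, SE 0.33, adjusted p = 0.0213). Slow myosin Myh7, at 3680, 1720 and 2220 CPM against 494, 974 and 75.3 CPM, did not overlap between groups but did not pass the test (-2.3, SE 0.79, adjusted p = 0.0742). The 6 libraries stood in the same order for Ampd1, Ak1, Ckm and Nt5c1a as for Myh4, and in another order for Adssl1 and Ak6. By group, fast markers were higher where the 6 called genes were higher, and slow markers where Ampd3 was higher. The part of fiber type in any of these differences was not tested.

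Per 1000 counts of Myh4, a scale chosen after the values were seen, Ampd1 was at 36.4, 29 and 26.5 counts in the Ctrl-labelled libraries and 26.6, 20.2 and 27.3 counts in the cKO-labelled ones, which overlapped (exact permutation p = 0.3). Nt5c1a was at 0.368, 0.25 and 0.194 counts against 0.246, 0.269 and 0.234 counts (exact permutation p = 0.8), and Ak6 also overlapped (exact permutation p = 0.3). The other 6 genes were lower per Myh4 count in the cKO-labelled libraries, with log2 differences from -0.77 for Ckm to -2.94 for Ampd3 (exact permutation p = 0.1 each). Since Myh4 itself differed between the groups, this scale describes how closely a gene kept step with Myh4 and not its own level.

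Beside Ampd3, denervation markers summed to 312 to 387 CPM in the Ctrl-labelled libraries and 170 to 210 CPM in the cKO-labelled ones, and 5 of 10 tested were higher in the former and 1 in the latter. The embryonic myosin Myh3, whose protein the study stained as a marker of myopathy, gave much of the sum. Myh3 was at 159, 201 and 171 CPM against 6.21, 21.5 and 9.68 CPM. The perinatal myosin Myh8 was the marker higher in the cKO-labelled libraries, at 28.2, 39.6 and 61.3 CPM against 78.1, 90.3 and 128 CPM (log2 fold change 1.2, adjusted p = 0.0275). In sums taken after the values were seen, the groups overlapped without Myh3 (154, 185 and 217 against 164, 171 and 200 CPM) and were apart without either myosin (125, 145 and 155 against 86, 81 and 72 CPM). The other markers higher in the Ctrl-labelled libraries were Chrnd, Runx1, Ncam1 and Myog, the last at 19.6, 22.1 and 20.8 CPM against 6.07, 5.09 and 5.73 CPM. Chrna1, Chrng, Gadd45a and Hdac4 did not pass the test (log2 fold changes of -0.5, -1.26, 0.04 and -0.1). Immune markers summed to 194 to 218 CPM against 88.5 to 123 CPM, with 7 of 10 higher in the Ctrl-labelled libraries, and Lyz2 was at 76.7, 76.8 and 83.2 CPM against 30.2, 43.2 and 39.2 CPM. Ampd3 is also a red blood cell enzyme, and Alas2, the 1 erythroid marker tested, had a log2 fold change of -0.16 (SE 0.28, adjusted p = 0.72). The 6 hemoglobin genes were listed at exactly 0 in every library although Alas2 had up to 363 counts, so these rows were not taken as a measure of blood. Fibro-adipogenic markers summed to 1180 to 1410 CPM against 819 to 1360 CPM, with 4 of 8 higher in the Ctrl-labelled libraries. Endothelial markers summed to 481 to 510 CPM against 433 to 451 CPM (1 of 7). Schwann cell markers summed to 88.1 to 138 CPM against 46.2 to 88.6 CPM (0 of 5 passed), and satellite cell markers to 7.3 to 7.71 CPM against 7.11 to 9.63 CPM (0 of 4). The part of these markers, and of the slow-fiber markers given above, in the Ampd3 difference was not tested.

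**Figure D5:**
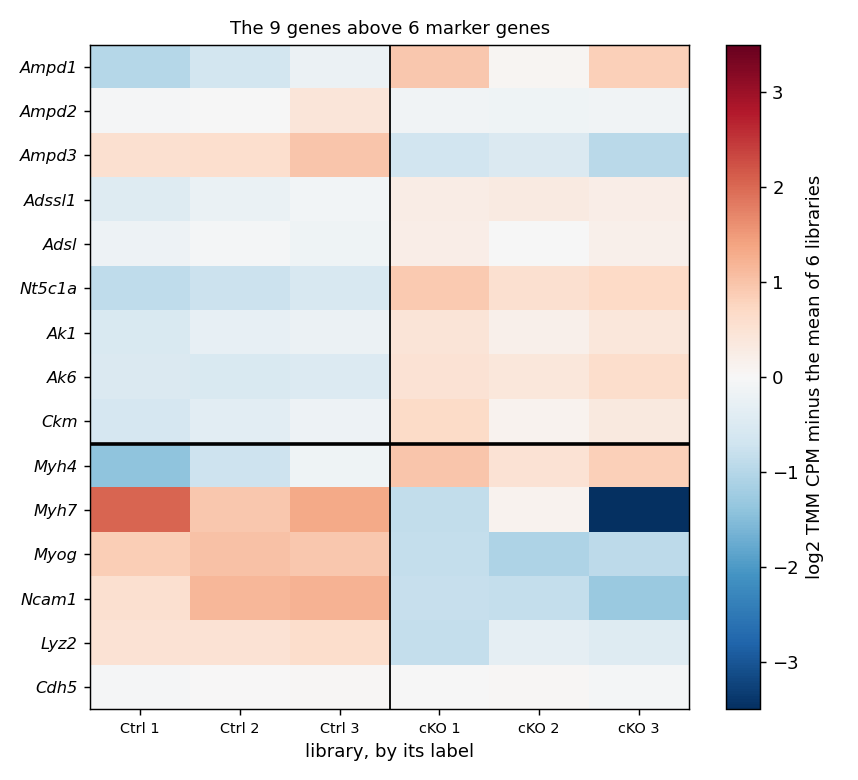
Log2 TMM-scaled CPM of the 9 genes, and below them of 6 marker genes, in the 6 libraries, each row with its mean over the 6 libraries subtracted. Ampd3 follows the rows of Myh7, Myog, Ncam1 and Lyz2 in being high in the Ctrl-labelled libraries, a direction in which 21.9% of all genes were separated. Ampd1, Ak1, Ckm and Nt5c1a follow the row of Myh4 in being high in the cKO-labelled ones (22% of all genes).

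The genes whose log2 CPM followed each AMP deaminase most closely were sought among 8051 genes over the 6 libraries, in which the group difference is included and libraries are shared. For Ampd1 they were Pgk1, Eif2a and Eno3 (Pearson's r = 0.995 each), Pgk1 and Eno3 being glycolytic enzymes. For Ampd3 they were Rrad (0.998), a small GTPase, Lbh (0.996) and Enah (0.996), with log2 fold changes of -4.2, -2.06 and -1.41. For Ampd2 they were Magt1 (0.977), Irf1 (0.976) and Azin1 (0.968). These values are a description over 6 libraries.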

How the data were processed

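Bulk RNA-Seq counts of GP muscle, 3 Ctrl-labelled libraries and 3 labelled cKO, were used. The authors deposited unnormalized whole-number counts per gene for each library, made with a KAPA mRNA HyperPrep kit. The submitters' processing notes name FastQC 0.11.8, Trimmomatic 0.39, HISAT2 2.1.0, featureCounts 1.6.2 and mm10. The gene annotation, the strand setting and the treatment of reads in overlapping genes are not given in the sources used here. No row was a summary line. Groups were taken from the labels, and Net39 goes against them.

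For testing, edgeR 4.0.16 was run in R 4.3.3 (TMM scaling, filterByExpr, glmQLFit and glmQLFTest, Benjamini-Hochberg adjustment over 14180 genes). SEs were derived from the F statistic. Calls used an adjusted p of 0.05, and a fold over 2 where stated. DESeq2 1.42.0 was an alternative, and the study used DESeq. Ratios were compared by exact two-sided permutation. CPM per kb used the union of GENCODE M21 exons (GRCm38). Scripts were tested on simulated data. Replicates differed by 30.8 to 107 chi-square units per degree of freedom, so no library repeated another. The p-values measure the spread between these libraries, and for genes of low count such as Ampd2, Ak6 and Nt5c1a counting error is not negligible beside it.

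The 9 genes and all lists were chosen with earlier results of these data known. Genes named in the text are the 9, pathway-list genes that met both call limits, the gene of smallest p in each list, Net39, the 3 genes nearest each AMP deaminase, and defining markers. Outside that rule, the genes overlapping a member and Ak3, Prps1, Slc6a8, Ckmt2, Prkaa1 and Lyz2 were named after their values were seen. So were the denervation markers Myh3, Myh8, Chrnd, Runx1, Chrna1, Chrng, Gadd45a and Hdac4. Alternatives were DESeq2, DESeq2 size factors, total counts, other filters, a robust fit, a tested fold of 1.2, the mouse number as a block, and each library left out.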

Additional observations from a re-analysis of the deposited data

How the results depend on the processing

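Ampd3, Ak1, Ak6 and Nt5c1a kept direction and call in all 14 alternatives, with log2 fold changes of -1.66 to -1.27, 0.42 to 0.74, 0.76 to 1.06 and 1.21 to 1.56. Ampd1 kept its call in 10 of 14, Ckm in 8 and Adssl1 in 7. When each library was left out in turn, 3 to 7 of the 9 genes were higher in the cKO-labelled libraries (3 without Ctrl 1, Ctrl 2, cKO 1 or cKO 3, where Ampd1, Adssl1 and Ckm were lost, and 7 without cKO 2) and 1 to 1 in the Ctrl-labelled ones. Genes called over all genes were 302 and 556, and 172 (without Ctrl 1) to 387 (without Ctrl 3) and 398 to 685 with a library left out.

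Scaling by total counts moved the median over all genes, as a log2 fold change, from -0.015 to -0.269. It left 157 and 1023 genes called, and 2 of the 9 higher in the Ctrl-labelled libraries, Ampd2 having passed (-0.52, adjusted p = 0.0336). Adssl1 was lost (0.28, adjusted p = 0.0981) and Adsl was reversed (-0.0049, adjusted p = 0.963). Relative to the median, the log2 fold changes were within 0.02 of those with TMM. Without a fold limit, 1786 and 1668 genes were called. Testing against a fold of 1.2 lost Adssl1 (adjusted p = 0.0702) and Ckm (adjusted p = 0.0731). Without dividing by length, the Ampd3 share of AMP deaminase reads differed by -6.15 percentage points in place of -4.02. Causes were not tested.

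The mouse numbers were not taken to pair the libraries. Same-numbered libraries had correlations of 0.0835, -0.215 and -0.00201 in their deviations from the group means, and differently numbered ones -0.217 to 0.194. With so few libraries, such correlations cannot show whether mice shared a litter or a day. With the mouse number as a replicate block, 236 and 448 genes were called, and Adssl1 (0.53, adjusted p = 0.0533) and Ckm (0.76, adjusted p = 0.0926) did not pass. The other members' calls were the same.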
